A study of Mus musculus with 24 samples.

Results

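The response of the wild-type (WT) mouse hippocampus to unilateral hypoxia-ischemia was followed in 8 RNA-seq libraries, 4 from the ipsilateral, injured side and 4 from the contralateral side, out of 24 libraries in the series. These were all libraries labelled WT. The 4 ipsilateral libraries comprised 2 replicates at 3 h and 2 replicates at 6 h after the insult, and so did the 4 contralateral libraries. All pups were 10 days old at the insult, and the same tissue was sampled from 8 libraries labelled Neil1-KO and 8 labelled Neil2-KO, strains deficient for a DNA glycosylase. The sources used here name neither strain nor sex, and no sham-operated group was analysed here. The labels say that both sides were taken from 2 replicates of each genotype and time. Sides with the same replicate number may therefore come from 1 animal, although no label states this. The 8 libraries were treated as independent. An alternative fit, called the replicate block here, had a block for each pair of same-numbered sides within a time. For 8 libraries the labels conflict, since the title gives NEIL2-KO and the genotype field NEIL1-KO. These were grouped by title and are called Neil2-KO here.

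In the standard rodent model, a carotid artery is closed on 1 side and the pup then breathes air low in oxygen. The ipsilateral hemisphere loses both blood flow and oxygen, while the contralateral one is exposed to the low oxygen alone. Cells that survive such an insult induce immediate early genes, heat shock chaperones and the unfolded protein response, microglia release chemokines and cytokines, and glutamate that accumulates outside neurons overstimulates NMDA receptors. The hippocampus is among the regions known to be sensitive to this injury.

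Values are normalized counts, reads scaled by 1 factor per library. Depth was 17771293 to 25669176 reads per WT library over all lines of the table. The first principal component of the 8 libraries (46.8% of the variance) separated the sides, with ipsilateral libraries between 18.9 and 50.3 and contralateral ones between -41.8 and -24.4. WT ipsilateral 6 h replicate 2 stood apart on the second component (15.8%), at -40.8 against -8.98 to 26.2 for the others. Neil2, the gene targeted in Neil2-KO, averaged 1.09 ± 1.18 normalized counts in Neil2-KO and 20.7 ± 4.66 in WT (SD, n = 8 libraries each). Neil1 averaged 125.8 ± 23.3 in labelled Neil1-KO and 97.99 ± 22.2 in WT (SD, n = 8 each), so the counts do not bear that label out. Fold changes are given as ipsilateral minus contralateral on the log2(value + 1) scale with their standard error (SE), and a gene is called where its limma adjusted p (Benjamini-Hochberg) was under 0.05. Neither gene was called between the sides of WT (Neil1 0.49 ± 0.17 and Neil2 -0.12 ± 0.27, limma adjusted p = 0.0616 and 0.788). However, 1 of them was called with all 24 libraries in the fit.

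Markers of one neighbouring tissue were not shared evenly among the libraries. Choroid plexus, the epithelium that secretes cerebrospinal fluid and lies against the hippocampus, makes transthyretin (Ttr) in abundance. Ttr had 83.3 and 331 at 3 h and 309.7 and 259 at 6 h in ipsilateral libraries, against 35647 and 174 at 3 h and 30933 and 27741 at 6 h in contralateral ones. Thus 3 of the 4 contralateral libraries held a high Ttr level, and contralateral 3 h replicate 2 resembled the ipsilateral ones. The summed level of the 12 choroid plexus markers was 46236 in contralateral 3 h replicate 1, 35199 and 33627 in the contralateral 6 h libraries, 1403 in contralateral 3 h replicate 2, and 1559 to 1952 in the 4 ipsilateral libraries. No choroid plexus marker was called higher and 6 of 12 were called lower on the ipsilateral side, by limma. This count ran from 1 without contralateral 6 h replicate 1 or 2 to 12 without contralateral 3 h replicate 2. The part of dissection in any fall of a gene that choroid plexus also makes was not tested. With the level of these markers as a covariate, the count of genes called over the whole table was 1684 instead of 3899, in a fit with 1 residual degree of freedom fewer. This covariate largely follows the side, since only contralateral 3 h replicate 2 separates them. The drop therefore does not measure the share of calls that choroid plexus accounts for.

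**Figure D1:**
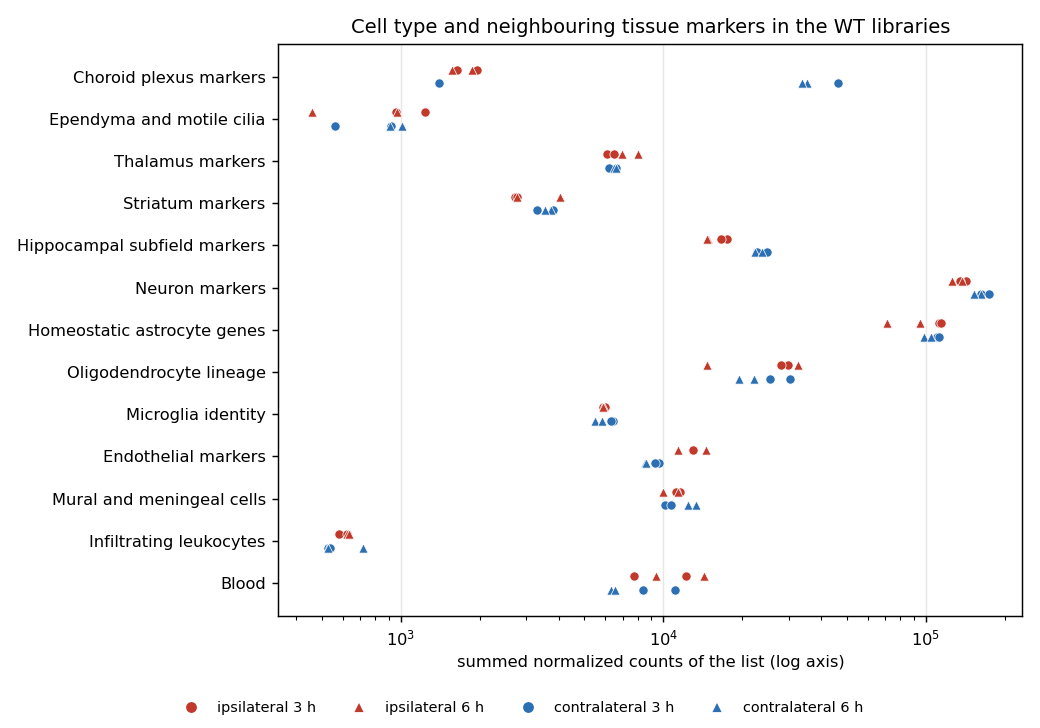
Summed normalized counts (log axis) of marker lists in the 8 WT libraries, with 1 point per library, ipsilateral in red above contralateral in blue, circles for 3 h and triangles for 6 h. Choroid plexus markers reach 33627 to 46236 in 3 contralateral libraries and 1403 in contralateral 3 h replicate 2, whereas hippocampal subfield and neuron markers lie lower in every ipsilateral library than in any contralateral one.

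Gene lists for other cell types described the rest of the tissue mix. In bulk tissue, fewer cells of a type and less RNA per cell cannot be told apart. The summed hippocampal subfield markers ranged 14644 to 17536 ipsilaterally and 22353 to 24777 contralaterally and the summed neuron markers 125364 to 141779 ipsilaterally and 152730.0 to 173475 contralaterally, without overlap (exact permutation within times, two-sided p = 0.0556, the smallest that 36 assignments allow). Microglia identity genes summed to 5879.5 to 5997 ipsilaterally and 5476 to 6444 contralaterally, so the ranges overlapped (exact permutation p = 0.778). Leukocyte markers were near the floor: 9 of the 12 listed genes in the table did not reach the filter, and the neutrophil genes S100a8, S100a9 and Mpo were among those not tested. S100a9 had 6.63 and 21.9 at 3 h and 8.90 and 4.11 at 6 h in ipsilateral libraries, against 2.19 and 2.31 at 3 h and 2.89 and 4.97 at 6 h in contralateral ones. Ipsilateral 3 h replicate 2 held the highest value. None of the other 3 leukocyte markers was called by limma (1 at an unadjusted p under 0.05, and 0 by edgeR and by DESeq2), and 1 was called higher without contralateral 6 h replicate 2. Thalamus markers (6106 to 8035 ipsilaterally and 6217 to 6627 contralaterally) and blood genes (7711 to 14287 ipsilaterally and 6331 to 11094 contralaterally) overlapped between the sides (exact permutation p = 0.389 and 0.222). Striatum markers were 2710.4 to 4037 ipsilaterally and 3308 to 3807 contralaterally, with the highest ipsilateral sum in 6 h replicate 2.

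Over both times together, with time as a blocking factor, 3899 of 17817 genes tested differed between the ipsilateral and contralateral hippocampus (21.9%, limma with Benjamini-Hochberg adjusted p under 0.05). Of these, 1794 were higher (10.1% of genes tested) and 2105 lower (11.8%) on the ipsilateral side. The strong changes were mostly increases: 516 of the called genes were at least 2-fold higher and 163 at least 2-fold lower. The median log2 fold change of all genes tested was 0.01. The 4 ipsilateral and the 4 contralateral values did not overlap for 4272 genes tested (24%), which included 3290 of those called. In 3815 called genes the ipsilateral value lay on the same side of the contralateral one in all 4 same-numbered pairs. This was counted among called genes only, which the same values had selected, so it is not separate evidence. No such count was made over all genes tested. The named rises included chemokines, stress-induced transcription factors, heat shock chaperones and inflammatory cytokines, and the named falls included NMDA receptor, potassium channel and carbonic anhydrase genes. The count of called genes was 2336 without contralateral 6 h replicate 1, and 4265 without ipsilateral 6 h replicate 2, the library that stood apart.

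**Figure D2:**
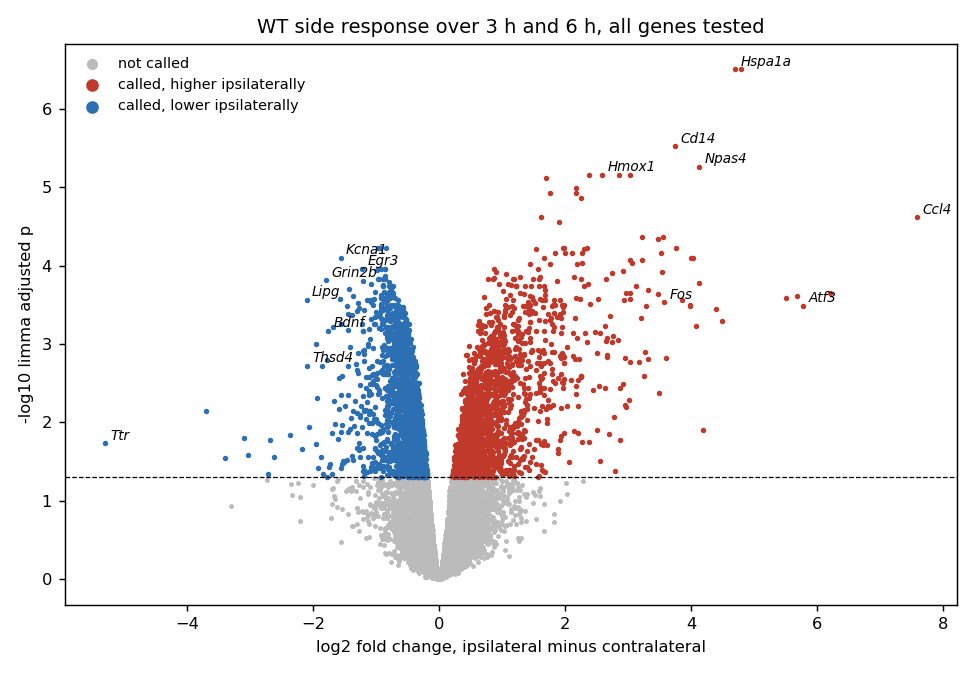
Log2 fold change (ipsilateral minus contralateral) against -log10 of the limma adjusted p for the 17817 genes tested in WT, with the dashed line at an adjusted p of 0.05. Rises reach 7.57 (Ccl4), while falls beyond -2 are few and include Ttr at -5.29.

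Chemokines, secreted proteins that attract leukocytes and that activated microglia make, included Ccl4 and Ccl3, the highest log2 fold changes among the genes tested. Of 12 chemokine genes tested, 9 were called higher and 1 lower, with a median log2 fold change of 3.25. Ccl4, which attracts monocytes and T cells, had 350.4 and 465 at 3 h and 666 and 491 at 6 h in ipsilateral libraries, against 5.48 and 1.16 at 3 h and 1.92 and 0 at 6 h in contralateral ones (normalized counts). All 4 ipsilateral values exceeded the highest contralateral one by a wide gap, and 1 contralateral library had 0. The pooled libraries held 2119 reads on the ipsilateral side and 8 on the contralateral side, and the ratio per unit of depth was 225 (95% counting interval 114 to 522). The fitted log2 fold change was 7.57 ± 0.48 (SE; limma adjusted p = 2.43e-05). Ccl3, a related chemokine, had 226 and 327 at 3 h and 448 and 282 at 6 h in ipsilateral libraries, against 8.77 and 0 at 3 h and 8.66 and 2.49 at 6 h in contralateral ones. The pooled libraries held 1369 reads on the ipsilateral side and 19 on the contralateral side, a ratio of 61.2 (95% counting interval 39.0 to 102). Ccl2, which attracts monocytes through CCR2, had 248 and 378 at 3 h and 296 and 138 at 6 h in ipsilateral libraries, against 5.48 and 10.4 at 3 h and 6.73 and 0 at 6 h in contralateral ones. The ratio of reads was 44.1 (95% counting interval 28.7 to 71.5). Ccl7, another CCR2 ligand, rose with a read ratio of 20.9 (95% counting interval 12.5 to 37.7), and Ccl9 rose by 3.48 ± 0.35 on the log2 scale. The one member called lower was Cx3cl1, fractalkine, the neuronal ligand of the microglial receptor CX3CR1, at -0.42 ± 0.08. Cxcl12 (-0.11 ± 0.12) and Cxcl14 (0.25 ± 0.12) were not called.

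**Figure D3:**
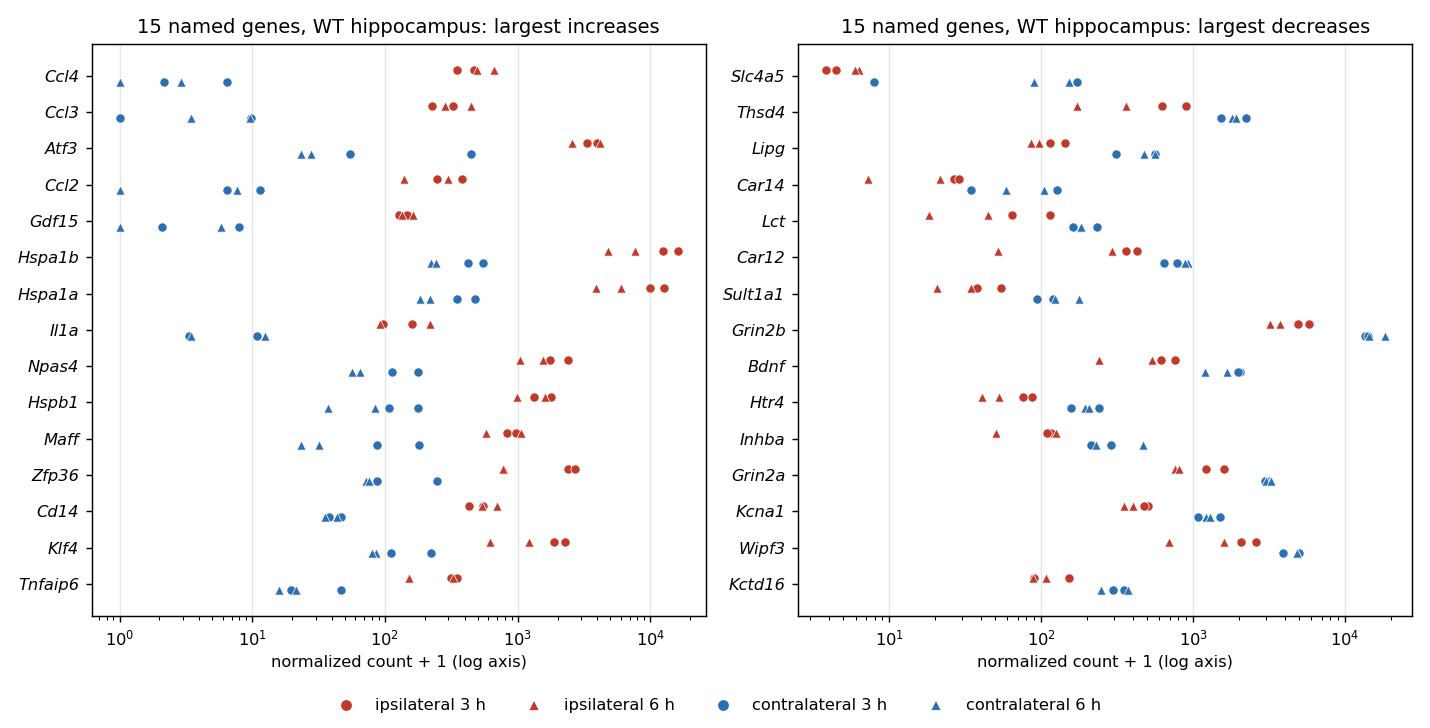
Normalized counts plus 1 (log axis) of the 15 largest increases and 15 largest decreases among genes that passed the naming rule, with 1 point per WT library, ipsilateral in red above contralateral in blue, circles for 3 h and triangles for 6 h. The naming rule required that the sides do not overlap. Ccl4 runs from 350.4 to 666 ipsilaterally against 0 to 5.48 contralaterally.

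Most cytokine and cytokine receptor genes were called higher. Of 19 tested, 16 were called higher and 2 lower (Il16 and Il1rap), with a median of 1.66. Il1a, encoding interleukin-1 alpha, had 96.6 and 159 at 3 h and 216 and 91.3 at 6 h in ipsilateral libraries, against 9.87 and 2.31 at 3 h and 11.5 and 2.49 at 6 h in contralateral ones. The lowest ipsilateral value was well above the highest contralateral one. The log2 fold change was 4.40 ± 0.49 (limma adjusted p = 3.56e-04). Tnf, tumour necrosis factor, was rare, with 111 reads on the ipsilateral side and 6 on the contralateral side, and its read ratio was 15.7 (95% counting interval 6.99 to 43.7). Il1rn, the antagonist of the interleukin-1 receptor, rose as well, with a read ratio of 27.4 (95% counting interval 10.4 to 102). Il1b had 191 reads on the ipsilateral side and 4 on the contralateral side and a ratio of 40.5 (95% counting interval 15.6 to 150.3). Socs3, the feedback inhibitor of signalling by the interleukin-6 family, had 1843 and 2086 at 3 h and 733 and 727 at 6 h in ipsilateral libraries, against 307 and 99.5 at 3 h and 61.6 and 60.9 at 6 h in contralateral ones. Its sides did not overlap and its log2 fold change was 3.52 ± 0.27 (limma adjusted p = 6.81e-05). Osmr, the oncostatin M receptor, was at 1.32 ± 0.23 and the gene of its ligand, Osm, at 3.59 ± 0.54. The receptor genes Tnfrsf1a and Il1r1 were called at 0.92 ± 0.14 and 0.70 ± 0.22. Tnfaip6, a hyaluronan-binding protein that these cytokines induce, had 312 and 351 at 3 h and 326 and 152 at 6 h in ipsilateral libraries, against 46.0 and 18.5 at 3 h and 20.2 and 14.9 at 6 h in contralateral ones, a log2 fold change of 3.53 ± 0.30. Neither Il16 nor Il1rap was called with the replicate block, or without contralateral 6 h replicate 1, contralateral 6 h replicate 2 or ipsilateral 3 h replicate 2.

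NF-kB, a transcription factor that inflammatory receptors activate, induces its own inhibitors. Of the 15 tested genes for its subunits, feedback inhibitors and targets, 10 were called higher and none lower, with a median of 0.76 (the smallest member was at 0.09). Zfp36, encoding tristetraprolin, which destabilizes cytokine transcripts, had 2387 and 2706 at 3 h and 789 and 776 at 6 h in ipsilateral libraries, against 247 and 86.8 at 3 h and 71.2 and 74.6 at 6 h in contralateral ones. Contralateral 3 h replicate 1 held the highest contralateral value, still below every ipsilateral one. The log2 fold change was 3.76 ± 0.27 (limma adjusted p = 6.03e-05). Nfkbiz, a nuclear cofactor of NF-kB, rose by 2.26 ± 0.18, and Tnfaip3 (A20), a ubiquitin-editing inhibitor of the pathway, by 0.86 ± 0.14. The subunit gene Rel rose by 1.04 ± 0.18. The subunit gene Nfkb1, at 0.32 ± 0.11, was not called. Of the 12 genes of this list with a promoter in RefSeq, 6 held a match to the NF-kB consensus in the 250 bases before a start, as did 3 of the 8 chemokine genes with one. The share was 10.7% of the 12454 tested genes with a promoter, 12.6% of those called higher and 12.1% of those called lower. It was 16.2% of those called at least 2-fold higher, which was not tested. A gene with several promoters was counted if any of them held the match. A match is only a description of these letters. The consensus (GGG, a purine, any 2 bases, 2 pyrimidines, CC) was searched on both strands. These stretches are shown because all 3 genes were called higher and hold the match. They are the 180 bases before each start, read 5′ to 3′ on the gene's strand, from RefSeq on GRCm38.p6, which is an older build than that of the deposited table. Capitals mark the match on either strand. All 3 genes lie on the minus strand, Tnfaip3 at chr10:19015411-19015590, Rel at chr11:23770970-23771149 and Ccl9 at chr11:83578637-83578816.
Tnfaip3: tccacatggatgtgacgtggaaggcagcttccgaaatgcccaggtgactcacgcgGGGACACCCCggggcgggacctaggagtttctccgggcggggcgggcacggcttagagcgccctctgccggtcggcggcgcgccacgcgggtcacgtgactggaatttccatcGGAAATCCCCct
Rel: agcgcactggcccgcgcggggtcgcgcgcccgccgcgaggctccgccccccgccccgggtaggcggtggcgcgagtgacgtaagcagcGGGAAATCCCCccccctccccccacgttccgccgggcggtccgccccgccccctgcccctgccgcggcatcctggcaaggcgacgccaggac
Ccl9: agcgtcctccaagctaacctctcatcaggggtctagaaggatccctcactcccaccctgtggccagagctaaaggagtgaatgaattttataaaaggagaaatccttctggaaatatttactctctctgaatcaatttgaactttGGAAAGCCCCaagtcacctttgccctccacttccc
The first base of the match lay 125 and 12 bases before the start in Tnfaip3, 92 and 91 bases before it in Rel (overlapping matches), and 35 bases before it in Ccl9.

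Interferon-stimulated genes rose in part. Of 18 tested, 10 were called higher and none lower (median 0.63). The count was 6 without contralateral 6 h replicate 1, contralateral 6 h replicate 2 or ipsilateral 3 h replicate 1, and 6 with the replicate block. Ifit3, which restricts viral RNA, rose by 1.87 ± 0.17, Rsad2 (viperin) by 2.02 ± 0.29 and the transcription factor gene Irf1 by 1.30 ± 0.20. Isg15 (1.18 ± 0.57) and B2m (0.38 ± 0.14) were not called.

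Immediate early genes are transcribed within minutes of calcium entry or stress without new protein synthesis. Of 25 tested, 20 were called higher and 1 lower, with a median of 1.97. Npas4, a neuronal transcription factor induced by calcium entry, had 2402 and 1753 at 3 h and 1558 and 1047 at 6 h in ipsilateral libraries, against 178 and 112 at 3 h and 64.4 and 55.9 at 6 h in contralateral ones. The sides were widely separated at both times. The log2 fold change was 4.12 ± 0.20 (limma adjusted p = 5.52e-06). Klf4, a zinc finger factor, had 1887 and 2264 at 3 h and 1212 and 616 at 6 h in ipsilateral libraries, against 220.4 and 110.0 at 3 h and 84.6 and 78.3 at 6 h in contralateral ones, a log2 fold change of 3.56 ± 0.24. Ier2 rose by 3.21 ± 0.22 and Klf2 by 1.90 ± 0.12. Fos, the AP-1 subunit most used to mark active neurons, had 21270.0 and 20801 at 3 h and 5983 and 4301 at 6 h in ipsilateral libraries, against 4826 and 1707 at 3 h and 387 and 178 at 6 h in contralateral ones. The sides overlapped, and the log2 fold change was 3.57 ± 0.38. Contralateral libraries also differed from each other: the summed list was 46725 and 30227 at 3 h and 17244 and 15042 at 6 h contralaterally, and 39645 to 109760 ipsilaterally. Egr3, an activity-induced zinc finger factor, was the only member called lower (-1.22 ± 0.10), while its relative Egr1 was called higher (2.65 ± 0.24). Egr4, Nr4a2, Nr4a3 and Fosl2 were not called over both times. With the 3 h libraries alone, 18 members were called higher and 4 lower, and with the 6 h libraries alone 20 higher and 1 lower. Maff, a small partner of AP-1 proteins, rose by 3.85 ± 0.40. Feedback inhibitors of MAP kinase signalling, the pathway upstream of these genes, were 10 Dusp phosphatase genes and 4 genes of the Sprouty and Spred family. Of these 14, 7 were called higher and 1 lower (median 0.45). The 7 were 6 Dusp genes and Spry4 (0.82 ± 0.13), and the one called lower was Spred2 (-0.46 ± 0.09). Dusp1 had 2849.6 and 2844 at 3 h and 840.2 and 678 at 6 h in ipsilateral libraries, against 465 and 356 at 3 h and 244 and 215 at 6 h in contralateral ones and a log2 fold change of 2.26 ± 0.20.

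The cyclic AMP response element TGACGTCA, searched on both strands, stood in 2 of the 19 immediate early genes with a promoter in RefSeq (Btg2 and Dusp1), against 2.88% of the 12454 tested genes with one. Dusp1 is shown as a named gene of this class with the element in capitals, in the 180 bases before its start on the minus strand at chr17:26508473-26508652 of GRCm38.p6.
Dusp1: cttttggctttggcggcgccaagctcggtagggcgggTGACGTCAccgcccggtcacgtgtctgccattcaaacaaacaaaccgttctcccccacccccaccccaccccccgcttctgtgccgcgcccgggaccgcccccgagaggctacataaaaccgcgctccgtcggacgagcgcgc
Its first base lay 143 bases before the start. The AP-1 element TGANTCA, also searched on both strands, was present in 12.1% of the 389 genes with a promoter that were called at least 2-fold higher, against 5.56% of the 12454 tested genes. It was 7.51% among all genes called higher and 5.42% among those called lower, and 0 of the 19 immediate early genes with a promoter held it. These comparisons were not tested.

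Activity-dependent effector genes, which neurons induce downstream of the same transcription factors, mostly went the other way. Of 16 tested, 11 were called lower and 2 higher, with a median of -0.80. Bdnf, a growth factor for neurons and synapses, had 753 and 617 at 3 h and 537 and 239 at 6 h in ipsilateral libraries, against 2025 and 1957 at 3 h and 1675 and 1187 at 6 h in contralateral ones. All ipsilateral values were below all contralateral values. The log2 fold change was -1.76 ± 0.23 (limma adjusted p = 6.74e-04). Inhba, encoding the activin A subunit, had 116 and 108 at 3 h and 125 and 49.4 at 6 h in ipsilateral libraries, against 212 and 288 at 3 h and 465 and 230.0 at 6 h in contralateral ones. It was called lower, at -1.59 ± 0.32, without overlap of the sides. Pcsk1, a prohormone convertase, was at -1.19 ± 0.13 and Sorcs3, a sorting receptor of synapses, at -0.95 ± 0.11; both were called lower. Ptgs2, encoding cyclooxygenase 2, was also called lower (-1.11 ± 0.18). The members called higher were Gadd45b, a stress-induced regulator of DNA demethylation and survival (2.19 ± 0.29), and Tac1, the substance P precursor (0.50 ± 0.13), whose limma adjusted p was 0.0571 with the block. Thus Npas4 was called higher and Bdnf, one of its known targets, lower.

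Heat shock genes encode chaperones that bind unfolded proteins. Of 18 tested, 15 were called higher and none lower, with a median of 0.62. Hspa1b and Hspa1a encode the inducible chaperone Hsp70 and are near-identical copies, so the split of reads between them is uncertain. Hspa1a had 9939 and 12759.5 at 3 h and 6029 and 3904 at 6 h in ipsilateral libraries, against 478 and 349.5 at 3 h and 182 and 218 at 6 h in contralateral ones. On each side, both 3 h values were above the 6 h ones. Hspa1b had 12466 and 16175 at 3 h and 7713 and 4786 at 6 h in ipsilateral libraries, against 550.3 and 424 at 3 h and 220.3 and 241 at 6 h in contralateral ones. This pair held the smallest adjusted p of the genes named (limma, 3.15e-07 for Hspa1a at a log2 fold change of 4.69 ± 0.16, and 4.79 ± 0.15 for Hspa1b). Hspb1, a small heat shock protein, had 1340.0 and 1784 at 3 h and 1618 and 985 at 6 h in ipsilateral libraries, against 177 and 106 at 3 h and 83.7 and 36.1 at 6 h in contralateral ones, a log2 fold change of 3.99 ± 0.31. Dnajb1, the cochaperone of Hsp70, rose by 1.37 ± 0.13. Among constitutive members, Hspa8 was at 0.50 ± 0.08 and Hsp90aa1 at 0.52 ± 0.10, both called, while Hsp90ab1 (0.10 ± 0.07) and Dnaja1 (0.13 ± 0.09) were not. The heat shock element (GAA, any 2 bases, TTC, any 2 bases, GAA), searched on both strands, stood in the promoters of 2 of 14 members with one in RefSeq, against 0.442% of the 12454 tested genes with one. These were Hspd1 and Hspe1, mitochondrial chaperonin genes that share 1 promoter and read away from each other. Hspe1 was singled out for its sequence after the values were seen. It had 1558 and 1698 at 3 h and 1873 and 1187 at 6 h in ipsilateral libraries, against 1027 and 903 at 3 h and 939.8 and 929 at 6 h in contralateral ones, a log2 fold change of 0.71 ± 0.13. Its 180 bases before the start, on the plus strand at chr1:55087968-55088147 of GRCm38.p6, are shown with 2 overlapping matches in capitals.
Hspe1: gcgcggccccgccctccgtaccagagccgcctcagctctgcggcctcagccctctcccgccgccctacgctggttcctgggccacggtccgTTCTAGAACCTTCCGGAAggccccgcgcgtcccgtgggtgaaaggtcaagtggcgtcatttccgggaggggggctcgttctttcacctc
The matches began 89 and 84 bases before the start.

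The integrated stress response and the unfolded protein response halt translation and then induce transcription factors and chaperones of the endoplasmic reticulum. Of 20 tested, 15 were called higher and none lower, with a median of 0.91. Atf3, a stress-induced transcription factor, had 3361 and 3949 at 3 h and 4146 and 2551 at 6 h in ipsilateral libraries, against 444 and 53.2 at 3 h and 26.9 and 22.4 at 6 h in contralateral ones. Contralateral 3 h replicate 1 held by far the highest contralateral level, and all ipsilateral values were above it. The log2 fold change was 5.77 ± 0.63 (limma adjusted p = 3.23e-04). Gdf15, a cytokine that stressed cells secrete, had 127 and 145 at 3 h and 163 and 132 at 6 h in ipsilateral libraries, against 1.10 and 6.94 at 3 h and 4.81 and 0 at 6 h in contralateral ones. The pooled libraries held 604 reads on the ipsilateral side and 12 on the contralateral side, a ratio of 42.7 (95% counting interval 24.3 to 83.2). Atf4, the central factor of the pathway, rose by 1.03 ± 0.12 and Cebpd by 2.38 ± 0.12. Hspa5 (BiP), the main chaperone of the endoplasmic reticulum, was called at 1.21 ± 0.19, and the pro-apoptotic factor gene Ddit3 (CHOP) at 1.27 ± 0.18. Asns, encoding asparagine synthetase, was at -0.02 ± 0.08 and Hyou1 at 0.01 ± 0.07, neither called. The ATF4 site TGATGNAAT was found in 0 of the 17 genes of this list with a promoter in RefSeq, against 0.546% of the 12454 tested genes with one.

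Some hypoxia targets and glycolytic enzymes were called higher. Of 22 tested, 8 were called higher, 3 lower and 11 were not called (median 0.09). Among all genes tested, 10.1% were called higher and 11.8% lower, so the share of falls was near that of all genes. The count of falls was 0 or 1 without contralateral 3 h replicate 2, contralateral 6 h replicate 1 or one or the other ipsilateral 3 h library. Hmox1, heme oxygenase 1, had 847 and 927 at 3 h and 1112 and 818 at 6 h in ipsilateral libraries, against 185 and 154 at 3 h and 136 and 137 at 6 h in contralateral ones, a log2 fold change of 2.59 ± 0.13 (limma adjusted p = 6.89e-06). Adm, the vasodilator adrenomedullin, rose by 1.98 ± 0.21, the glucose transporter gene Slc2a1 by 0.96 ± 0.12 and the angiogenic factor gene Vegfa by 0.38 ± 0.06. The enzyme genes Ldha (-0.22 ± 0.07), Pgk1 (-0.15 ± 0.06), Aldoa (-0.13 ± 0.08) and Eno1 (-0.03 ± 0.08) were not called. Other enzyme genes of the list were called, Pfkfb3 higher (0.40 ± 0.09) and Pfkl (-0.24 ± 0.07) and Pdk1 (-0.25 ± 0.08) lower. Slc2a3, the neuronal glucose transporter gene, was called lower (-0.34 ± 0.08). Of 19 nuclear genes of oxidative phosphorylation, 2 were called, Sdha (-0.22 ± 0.06) and Ndufs1 (-0.23 ± 0.07), both lower, and the replicate block called 0. These 2 were a share near the 11.8% called lower among all genes tested.

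Among p53 targets and cell death genes, 5 of 19 were called higher and 3 lower. These falls were a share little above the 11.8% called lower among all genes tested. The count of falls was 1 without contralateral 6 h replicate 2 or one or the other ipsilateral 3 h library. Fas, a death receptor, rose by 2.22 ± 0.34, the pro-apoptotic BH3 genes Bbc3 and Bcl2l11 by 1.15 ± 0.20 and 1.03 ± 0.19, and Mcl1, a survival factor of the same family, by 0.92 ± 0.13. Cdkn1a (0.30 ± 0.16), Bax (0.12 ± 0.09) and Mdm2 (0.09 ± 0.08), textbook targets of p53, were not called. NRF2 targets and antioxidant genes were called higher in 3 of 18 cases and lower in 2. Osgin1 (2.71 ± 0.32) and Srxn1 (0.47 ± 0.10), an enzyme gene that restores peroxiredoxins, rose, while Nqo1 (0.14 ± 0.17) was not called. Of 16 base excision repair genes, 2 were called, both lower: Parp1, which senses strand breaks (-0.50 ± 0.09), and the glycosylase gene Tdg (-0.29 ± 0.07). That share was near the 11.8% called lower among all genes tested. With all 24 libraries in the fit, 2 repair genes were called higher and 2 lower.

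**Figure D4:**
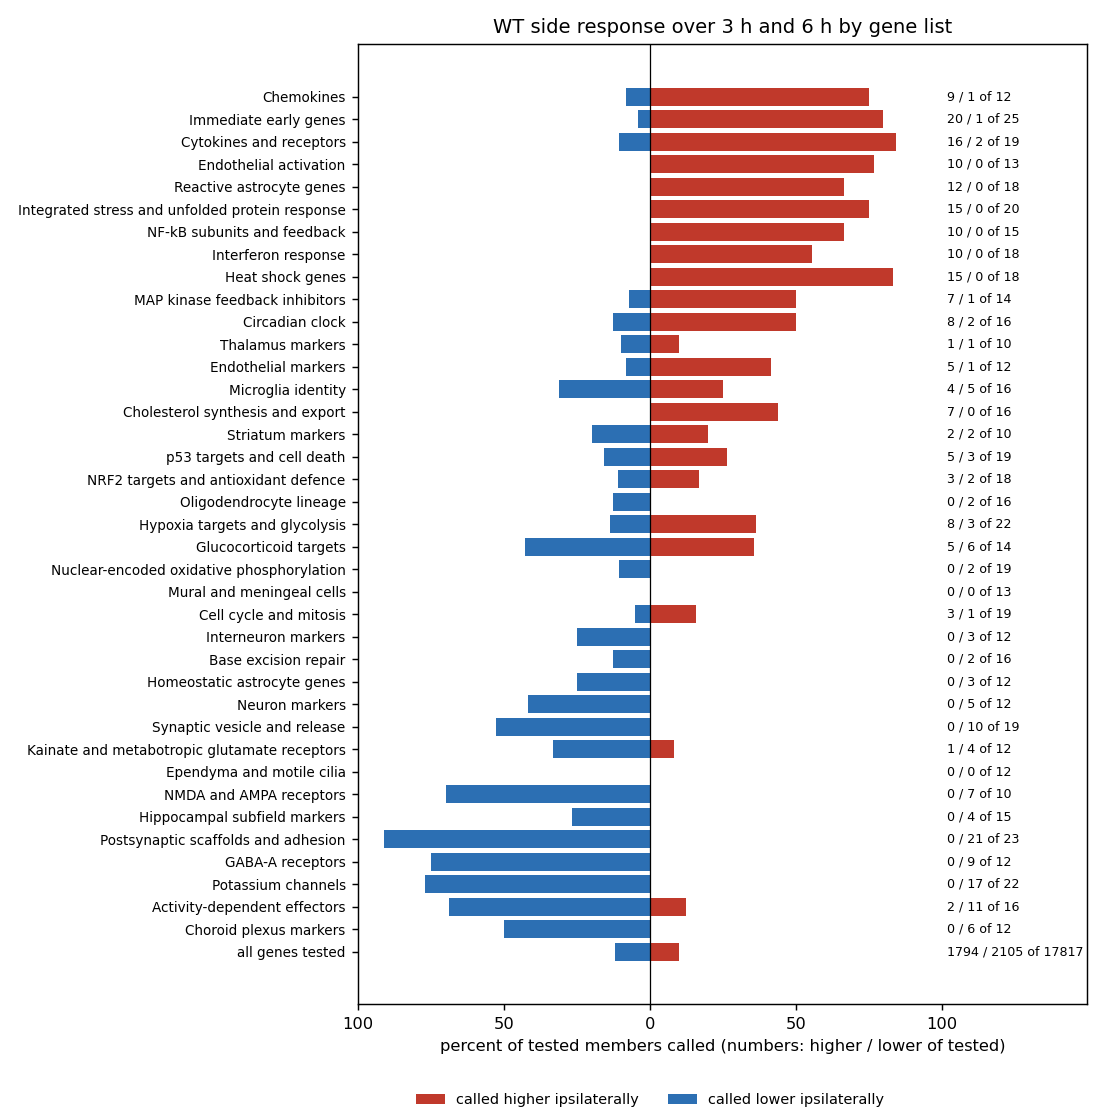
Percent of tested members called higher (red, right) and lower (blue, left) on the ipsilateral side for each gene list with at least 5 tested members, ordered by median log2 fold change, with all genes tested at the bottom. Chemokines, cytokines, immediate early and heat shock genes lie mostly to the right, and postsynaptic, receptor and channel lists to the left, against 10.1% higher and 11.8% lower over all genes.

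Most NMDA and AMPA receptor genes were called lower. Of 10 NMDA and AMPA receptor genes, 7 were called lower and none higher (median -0.53). Grin2b, the NMDA receptor subunit that dominates in the immature forebrain, had 5761 and 4881 at 3 h and 3199.8 and 3744 at 6 h in ipsilateral libraries, against 13408 and 14036 at 3 h and 14277 and 18159.9 at 6 h in contralateral ones. Every ipsilateral value was well below the lowest contralateral one. The log2 fold change was -1.79 ± 0.16 (limma adjusted p = 1.54e-04). Grin2a, the subunit that joins the receptor as the brain matures, had 1592 and 1216 at 3 h and 764 and 801 at 6 h in ipsilateral libraries, against 3127 and 2989 at 3 h and 3036 and 3232 at 6 h in contralateral ones, at -1.57 ± 0.16. The sides of Grin2a did not overlap either, and both times showed the fall. The obligatory subunit gene Grin1 was at -0.51 ± 0.15 and the AMPA receptor genes Gria1, Gria2 and Gria3 at -0.91 ± 0.21, -0.58 ± 0.12 and -0.54 ± 0.10, all called lower. Grin2c, Grin2d and Gria4 were not called. Among kainate and metabotropic receptors, 4 of 12 were called lower and 1 higher. Grm5, the main postsynaptic metabotropic receptor, was at -0.81 ± 0.11, and Grm3, which astrocytes also express, was the one called higher (0.35 ± 0.10), a call lost with the replicate block (limma adjusted p = 0.0639).

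Scaffold and adhesion genes of the postsynapse gave the highest share of falls among the lists with at least 5 tested members. Of 23 tested, 21 were called lower and none higher (median -0.56), against 11.8% of all genes tested. Dlgap1, a scaffold that links PSD-95 to Shank, had 4996 and 4394 at 3 h and 3343 and 3124 at 6 h in ipsilateral libraries, against 7073 and 8254 at 3 h and 6922 and 7143 at 6 h in contralateral ones, a log2 fold change of -0.91 ± 0.10. Shank3 was at -0.82 ± 0.10, Homer2 at -0.56 ± 0.07 and the kinase subunit gene Camk2b at -0.56 ± 0.07, all called lower. Dlg1 (0.13 ± 0.10) and Nrxn2 (-0.24 ± 0.16) were not called. On the presynaptic side, 10 of 19 genes were called lower and none higher (median -0.28). Bsn, encoding the active zone protein Bassoon, was at -1.28 ± 0.14, Sv2b at -1.07 ± 0.10, Unc13a, which primes vesicles, at -0.73 ± 0.09, and the vesicular glutamate transporter gene Slc17a7 at -0.63 ± 0.09. The core fusion genes Snap25 (-0.25 ± 0.08), Vamp2 (-0.18 ± 0.07) and Stx1a (-0.03 ± 0.13) were not called.

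Inhibitory receptor and potassium channel genes were also called lower in most cases. Of 12 GABA-A receptor genes, 9 were called lower and none higher (median -0.60). Gabra4 was at -0.77 ± 0.08, Gabrb1 at -1.19 ± 0.17 and Gabrg3 at -0.54 ± 0.08; Gabrd (0.14 ± 0.23) and Gabra3 (0.04 ± 0.11) were not called. Of 22 potassium channel genes, 17 were called lower and none higher (median -0.72). Kcna1, the axonal channel Kv1.1 that limits repetitive firing, had 500.0 and 473 at 3 h and 399.6 and 349 at 6 h in ipsilateral libraries, against 1070.0 and 1492 at 3 h and 1221 and 1294 at 6 h in contralateral ones. The sides did not overlap, and the log2 fold change was -1.56 ± 0.12 (limma adjusted p = 8.01e-05). Kcnj3, a channel opened by inhibitory G protein receptors, was at -0.86 ± 0.08. Kctd16, an auxiliary subunit of GABA-B receptors, was at -1.56 ± 0.19, and the serotonin receptor gene Htr4 at -1.69 ± 0.21. Of 12 general neuron markers, 5 were called, all lower (median -0.26), with Map2 at -0.53 ± 0.06, Tubb3 at -0.38 ± 0.10 and Elavl4 at -0.41 ± 0.10, while Rbfox3, the nuclear antigen NeuN, was at -0.26 ± 0.12 and not called. The count of neuron markers was 3 without contralateral 6 h replicate 1, one or the other ipsilateral 3 h library or ipsilateral 6 h replicate 1, and 8 without ipsilateral 6 h replicate 2. Of 12 interneuron markers, 3 were called lower (Cck, Nos1 and Gad2), and Sst (0.17 ± 0.13) and Pvalb (0.62 ± 0.35) were not called. Of 15 subfield markers, 4 were called lower. This count was 1 without one or the other contralateral 6 h library or without ipsilateral 3 h replicate 2, 2 without ipsilateral 3 h replicate 1 and 2 with the replicate block, and 7 without ipsilateral 6 h replicate 2. Fibcd1, a CA1 marker, was at -1.53 ± 0.26 and C1ql2, a dentate granule cell marker, at -0.66 ± 0.21, while Prox1, the dentate transcription factor, was at -1.20 ± 0.53 and not called. With the replicate block the adjusted p (limma) was 0.0556 for C1ql2 and 0.0519 for Gad2.

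Glial and vascular genes showed mixed changes. Among 18 reactive astrocyte genes, 12 were called higher and none lower (median 1.19). Cd14, a coreceptor of toll-like receptor 4 that microglia also express, had 433 and 547 at 3 h and 537 and 704 at 6 h in ipsilateral libraries, against 46.0 and 37.0 at 3 h and 34.6 and 42.3 at 6 h in contralateral ones, and its log2 fold change was 3.75 ± 0.16 (limma adjusted p = 3.02e-06). Emp1 rose by 2.93 ± 0.31 and S1pr3, a receptor for sphingosine 1-phosphate, by 1.47 ± 0.21. Gfap (0.27 ± 0.10) and Serpina3n (-0.07 ± 0.12) were not called. Of 12 homeostatic astrocyte genes, 3 were called, all lower: Fgfr3 (-0.83 ± 0.11) and the gap junction genes Gjb6 (-0.96 ± 0.17) and Gja1 (-0.41 ± 0.12). Gja1 lost its call with the block (limma adjusted p = 0.0836).

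Microglia identity genes divided, with 4 of 16 called higher and 5 lower. The count of rises was 2 without contralateral 3 h replicate 2, one or the other contralateral 6 h library or ipsilateral 6 h replicate 1, and 2 with the replicate block. Tmem119 had 96.6 and 80.6 at 3 h and 34.7 and 84.7 at 6 h in ipsilateral libraries, against 164 and 209 at 3 h and 137 and 159 at 6 h in contralateral ones, a log2 fold change of -1.24 ± 0.25. P2ry12, the receptor by which resting microglia sense ATP, had 259 and 281 at 3 h and 126 and 104 at 6 h in ipsilateral libraries, against 356 and 409.7 at 3 h and 394 and 460.0 at 6 h in contralateral ones, at -1.19 ± 0.24, and the transcription factor gene Sall1 was at -0.48 ± 0.09. The members called higher included Ptprc (CD45) at 1.31 ± 0.20, Tyrobp and C1qb. Aif1 (0.18 ± 0.28) and Csf1r (-0.12 ± 0.08) were not called. Spp1, osteopontin, which activated microglia secrete, had 332 and 416 at 3 h and 762 and 792 at 6 h in ipsilateral libraries, against 68.0 and 55.6 at 3 h and 83.7 and 90.8 at 6 h in contralateral ones, and it was among the 10 smallest adjusted p under the naming rule (2.86 ± 0.15, limma adjusted p = 6.89e-06). So was Otud1, a deubiquitinase gene, at 1.69 ± 0.09.

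Endothelial activation genes were called higher in 10 of 13 cases and lower in none (median 1.62). Angpt2, which loosens vessel walls, had 371 and 396 at 3 h and 387 and 319 at 6 h in ipsilateral libraries, against 97.6 and 78.7 at 3 h and 76.0 and 72.1 at 6 h in contralateral ones, a log2 fold change of 2.17 ± 0.12. Plaur, the urokinase receptor, rose by 3.03 ± 0.24 and its ligand gene Plau by 3.02 ± 0.16. Among 12 endothelial markers, 5 were called higher, with Cdh5 at 1.16 ± 0.13 and Pecam1 at 0.89 ± 0.15, and Ly6c1 was called lower (-0.42 ± 0.11). The summed endothelial markers were 11414 to 14566 ipsilaterally and 8545 to 9635 contralaterally. None of 13 mural and meningeal genes was called by limma (3 at an unadjusted p under 0.05, and 0 by edgeR and by DESeq2), and 1 was called lower without contralateral 3 h replicate 2. In the oligodendrocyte lineage 2 of 16 genes were called, a share of falls near that of all genes tested (11.8%). Both were lower and both of precursor cells: Pdgfra (-0.84 ± 0.08) and Cspg4 (-0.45 ± 0.10). Without ipsilateral 6 h replicate 1, 4 members were called higher, against none with all libraries. Their summed level was 14690 in that library, 28053 to 32675 in the other 3 ipsilateral libraries and 19495 to 30411 contralaterally. The myelin gene Mbp (0.35 ± 0.35) was not called.

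Among the 15 largest falls, Slc4a5, a bicarbonate transporter gene, is a choroid plexus marker and had 2.84 and 3.46 at 3 h and 5.34 and 4.94 at 6 h in ipsilateral libraries, against 169.9 and 6.94 at 3 h and 88.5 and 152 at 6 h in contralateral ones. With choroid plexus markers as a covariate its log2 fold change was -1.36 instead of -3.70. Car12 and Car14, carbonic anhydrase genes, had log2 fold changes of -1.87 ± 0.51 and -1.96 ± 0.49, against -1.35 and -0.74 with the covariate. Without ipsilateral 6 h replicate 2, Car12 was at -1.17. Thsd4, which encodes a protein of microfibrils, had 902 and 622 at 3 h and 359.6 and 171 at 6 h in ipsilateral libraries, against 1527 and 2242 at 3 h and 1813 and 1902 at 6 h in contralateral ones, and its log2 fold change of -2.10 was -2.07 with the covariate. That of Grin2b was -1.65, against -1.79. Lipg, endothelial lipase, was at -2.10 ± 0.22, Lct at -1.93 ± 0.37, Wipf3 at -1.56 ± 0.29 and Sult1a1, a phenol sulfotransferase gene, at -1.85 ± 0.29. The covariate ended the calls of Slc4a5 (limma adjusted p = 0.0646), Car12 (0.308), Car14 (0.399), Lct (0.118) and Wipf3 (0.0700). It also ended those of Inhba, Gria3, Elavl4, C1ql2, Gad2, Gja1, Grm3, Tmem119, P2ry12, Tnfaip3, Srxn1, Bbc3, Tac1, Drd1, Gbx2, Ccne1, Tdg, Sdha, Ndufs1 and Ttr, at limma adjusted p of 0.0532 to 0.376. The covariate largely follows the side. With it the limma adjusted p of Thsd4 rose from 0.00188 to 0.0360, although its fold change hardly moved. For some genes it fell, as for Tubb3 from 0.0237 to 0.0086. A lost call does not assign a gene to choroid plexus.

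Other gene lists are given by their counts. Among circadian clock genes, 8 of 16 were called higher and 2 lower, with Ciart (1.78 ± 0.25), Bhlhe40 (1.41 ± 0.15), Bhlhe41 (1.24 ± 0.19) and Per1 (1.09 ± 0.20) higher and Clock (-0.33 ± 0.08) lower. Among glucocorticoid targets, 5 of 14 were called higher and 6 lower, the count of falls being 3 without one or the other contralateral 6 h library and 3 with the replicate block. Fkbp5, a chaperone of the receptor, was called lower (-0.89 ± 0.08), and so was the mineralocorticoid receptor gene Nr3c2 (-1.54 ± 0.45), whereas Pdk4 (1.03 ± 0.13) was called higher. Of 16 cholesterol genes, 7 were called higher and none lower (3 without one or the other contralateral 6 h library and 4 without ipsilateral 3 h replicate 2), among them Insig1 (1.18 ± 0.11), which restrains cholesterol synthesis, and Idi1 (0.85 ± 0.14). Cell cycle genes were called in 4 of 19 cases, with Mcm2 (0.87 ± 0.12), Ccnd1 (0.91 ± 0.14) and Ccne1 (0.56 ± 0.16) higher and Ccnf (-1.46 ± 0.16) lower. Ccne1 had an adjusted p (limma) of 0.0634 with the block. None of 12 ependymal genes was called by limma (2 at an unadjusted p under 0.05, 0 by edgeR and 1 by DESeq2), 1 was called lower without contralateral 3 h replicate 2 and 1 higher without ipsilateral 6 h replicate 2. None of 4 blood genes was called by limma, edgeR or DESeq2, and 0 had an unadjusted p under 0.05. However, 3 of them were called higher without ipsilateral 3 h replicate 2 and with the 6 h libraries alone, and 1 without contralateral 3 h replicate 1. These 4 of 19 cell cycle genes and the 2 of 10 thalamus markers called were shares near that of all genes tested (21.9%). Calls in either direction were little above it for interneuron markers (3 of 12), homeostatic astrocyte genes (3 of 12) and subfield markers (4 of 15). The same held for antioxidant genes (3 higher and 2 lower of 18). All calls in the first 3 of these lists were falls, against 11.8% of all genes tested called lower. Of 10 thalamus markers, Gbx2 was called higher (1.94 ± 0.47) and Plekhg1 lower (-0.75 ± 0.11). Of 10 striatum markers, Drd1 (1.16 ± 0.21) and Tac1 were called higher and Pde10a (-0.78 ± 0.08) and Ppp1r1b (-0.81 ± 0.11) lower. Small counts were less firm: those of the activity-dependent effectors, kainate and metabotropic receptors, striatum and thalamus markers called higher, and of the repair, clock, antioxidant and endothelial genes called lower, each lost 1 or more calls when one or another of the 8 libraries was left out.

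The times were then taken apart in a fit with a mean for each side and time. At 3 h, 1226 genes were called between the sides (6.88%), 589 higher and 637 lower. At 6 h, 4126 were called (23.2%), 2042 higher and 2084 lower. Both counts rest on 1 estimate of the spread shared by both times. With each time fitted alone, 2009 genes were called at 3 h and 2498 at 6 h, so the contrast in counts depends on the fit. In the shared fit, 986 genes were called at both times in one direction and 3 in opposite directions. Of these 986, 678 had the larger fold change at 6 h, and the median size of the log2 fold change was 0.71 at 3 h and 0.89 at 6 h. Across all genes tested the Pearson correlation of the 3 h and 6 h log2 fold changes was 0.61, a description across genes, which are not independent replicates. Cytokine genes had a median of 0.72 at 3 h and 2.50 at 6 h, and chemokines 2.51 at 3 h and 4.0 at 6 h. Immediate early genes had 1.98 at 3 h and 1.80 at 6 h, heat shock genes 0.68 at 3 h and 0.59 at 6 h, and postsynaptic genes -0.54 at 3 h and -0.60 at 6 h. Choroid plexus markers had -1.20 at 3 h and -3.53 at 6 h.

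Between the times, 1 gene differed in its side response (0.00561% of genes tested), while 2382 had an unadjusted p under 0.05. This gene was Hes5, a transcriptional repressor that Notch signalling induces and that keeps neural progenitors undifferentiated. Hes5 had 549 and 528 at 3 h and 57.9 and 63.4 at 6 h in ipsilateral libraries, against 146 and 216 at 3 h and 172 and 239 at 6 h in contralateral ones. At 3 h the ipsilateral values were above, and at 6 h below, all contralateral ones. The side response was 1.59 at 3 h and -1.73 at 6 h, a difference of -3.32 ± 0.31 (log2, SE; limma Benjamini-Hochberg adjusted p = 0.0303). With the replicate block the adjusted p was 0.137, and with all 24 libraries in the fit it was 0.234. Malat1 and Mphosph9 also changed direction, with 0.79 and 0.62 at 3 h and -0.86 and -0.59 at 6 h, but their differences were not called (limma adjusted p = 0.0809 and 0.0985). They are named because only 3 genes behaved so. The number of genes whose side response differed between the times was 1493 without ipsilateral 6 h replicate 1 and 59 without ipsilateral 6 h replicate 2. It was 2 without contralateral 3 h replicate 2, and 0 without any one of the 5 other libraries.

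**Figure D5:**
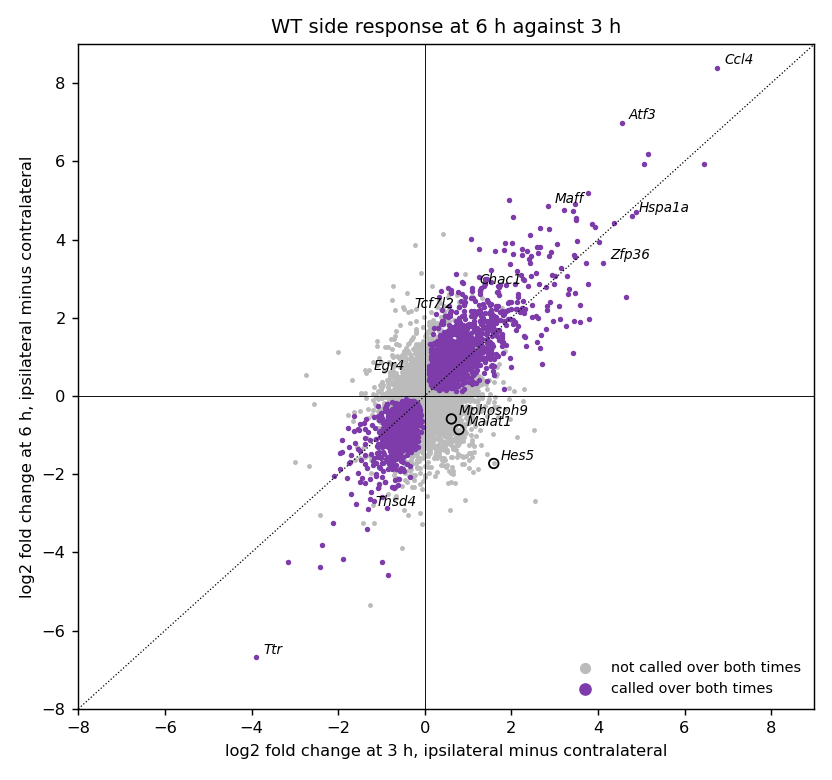
Log2 fold change (ipsilateral minus contralateral) at 6 h against 3 h for the 17817 genes tested in WT, with genes called over both times in purple and the diagonal dotted. Circles mark the 3 genes called in opposite directions, of which Hes5 lies at 1.59 at 3 h and -1.73 at 6 h.

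The side response of WT was finally set against those of the other genotypes, in a fit of all 24 libraries with a mean for each of 12 groups. No gene was called between WT and labelled Neil1-KO or between WT and Neil2-KO among 18364 tested (0% each by limma), with 2652 and 976 genes at an unadjusted p under 0.05. DESeq2 called 2 and 1, and edgeR 0 in each. Between WT and labelled Neil1-KO the limma count was 174 without WT ipsilateral 6 h replicate 1 and 2106 without labelled Neil1-KO ipsilateral 6 h replicate 1. Between WT and Neil2-KO it was 50 without WT ipsilateral 6 h replicate 1. Of the 18364 genes tested in that fit, the sides differed in 4291 in WT, 8153 in the labelled Neil1-KO libraries and 5448 in the Neil2-KO ones. These counts come from separate tests, and no test of their difference was run. Of the 3899 genes called in the WT libraries, 3407 were called with the same sign in the labelled Neil1-KO libraries and 3126 in the Neil2-KO libraries, and 1 was called with the opposite sign in each. These were Runx1t1 (0.37 in WT) in the labelled Neil1-KO libraries and Kdm3a (-0.26 in WT) in the Neil2-KO libraries, named because of that sign. The genotypes share no library, but the knockout calls come from the 24-library fit, where all genotypes share 1 estimate of the spread. They are therefore not fully independent of the WT libraries. The Ccl4 response was 7.57 in WT, 7.52 in the labelled Neil1-KO libraries and 7.86 in the Neil2-KO ones. That of Hspa1a was 4.69 in WT, 5.50 in the labelled Neil1-KO libraries and 4.80 in the Neil2-KO ones. That of Grin2b was -1.79 in WT, -2.52 in the labelled Neil1-KO libraries and -1.84 in the Neil2-KO ones, with a difference of 0.73 ± 0.31 between WT and labelled Neil1-KO and 0.05 ± 0.31 between WT and Neil2-KO (log2, SE, not called). The choroid plexus gene Ttr was at -5.29 in WT, 2.03 in the labelled Neil1-KO libraries and -1.15 in the Neil2-KO ones, and WT minus knockout was -7.32 ± 2.50 for labelled Neil1-KO and -4.14 ± 2.50 for Neil2-KO, neither called.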

How the data were processed

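The authors deposited 1 table of 33084 lines with a signal per gene and library: read counts divided by a size factor (normalized counts). The processing notes of the submitters name HISAT2 and Trim Galore, featureCounts, SAMtools and DESeq2, and build GRCm39 (mm39). Versions and strandedness are not given in the sources used here, so reads of overlapping antisense genes cannot be told apart. The 10770 lines without a gene name (8.44% to 10.5% of WT reads) were left out. Symbols on several lines (24) were kept apart. Deposited values were whole multiples of the value of 1 read (tolerance 1e-06), from which reads were recovered.

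Libraries were grouped by title. A gene was tested if 2 or more of the 8 WT libraries held a value of 10 or more. Limma-trend (limma 3.58.1, R 4.3.3) was fitted to log2(value + 1) with terms for side and time. A gene was called at a Benjamini-Hochberg adjusted p under 0.05. Fold changes of low genes depend on the pseudocount, so pooled read ratios with exact intervals (counting error only) are given. Summed marker lists were compared by exact permutation within times. P-values measure the spread between these 8 libraries. Alternatives were a pseudocount of 5, no filter, edgeR 4.0.16 (TMM), DESeq2 1.42.0, the replicate block (same-numbered sides within a time), all 24 libraries, no time term, each time alone, choroid plexus markers as a covariate, and leaving out each library. Deviations of same-numbered sides correlated at 0.0082 at 3 h and -0.00044 at 6 h across genes, so the numbers were not shown to mark a shared animal. The fits were tested on simulated data.

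The members, lists and tests were chosen with earlier results of these data known. Genes named were the 15 highest and 15 lowest called fold changes without overlap of the sides and with a mean of at least 50 (predicted genes left out), the 10 smallest adjusted p under the same conditions, up to 4 called members of each list, uncalled members with a textbook role, called genes of the time and genotype differences, and Neil1 and Neil2. The other called list members that are named (for example Fos, Egr1, Hspa5, Hspe1 and Il1b) were chosen after their values were seen. Some list members that the naming rule would include are not reported here.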

Additional observations from a re-analysis of the deposited data

Results flagged for a closer look

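In WT contralateral 3 h replicate 1, some genes lay far from the other 3 contralateral libraries. Atf3 had 444 normalized counts there, Zfp36 246.7, Tnfaip6, a hyaluronan-binding protein induced by inflammation, 46.05, and Wipf3, an actin regulator, 3880. The first 3 were above, and Wipf3 below, the other contralateral values, and none reached the ipsilateral range. The summed cholesterol genes were also highest in this library among the contralateral ones, at 56440.

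Contralateral 3 h replicate 2 held the highest contralateral sum of kainate and metabotropic glutamate receptor genes, 25890, and the lowest contralateral sum of reactive astrocyte genes, 13040. Contralateral 6 h replicate 2 had the highest sum of leukocyte markers, 716.1. On the ipsilateral side, the summed cytokine and receptor genes were 11410 in 6 h replicate 1, and the summed striatum markers 4037 in 6 h replicate 2, each the highest of the 4. In total 10 such distances were found among 152 groups of 4 examined, where chance gives about 1 in 20.

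The side response of Hes5 differed between the times by -3.321 on the log2 scale (6 h minus 3 h).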

How the results depend on the processing

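The 3899 genes called in WT were 3908 with a pseudocount of 5, 3748 without a filter, 3904 with edgeR (3803 shared with the 3899), 4190 with DESeq2, 3240 without a term for time, 4291 in the 24-library fit and 2813 with the replicate block (2784 shared). They were 2009 with the 3 h libraries alone, 2498 with the 6 h libraries alone and 1684 with choroid plexus markers as a covariate, which largely follows the side. Leaving out 1 library gave 2336 to 4265. Of 151 results on named genes, 11 lost their call with the block, 31 with the choroid covariate, 26 at 3 h alone and 18 at 6 h alone. A further 8 lost it without a term for time, 8 in the 24-library fit and 1 with edgeR. None did with DESeq2, the other pseudocount or no filter. In the 24-library fit, 1 result (Neil1 or Neil2) gained a call. Leaving out 1 library also ended calls, most often without contralateral 6 h replicate 1. Only Neil2, not called, changed sign: 0.0171 at 6 h alone, 0.0312 without contralateral 3 h replicate 2 and 0.00483 without ipsilateral 3 h replicate 1, in a range of -0.289 to 0.0312 over the fits that left out a library. The 1 gene whose response differed between times became 218 with DESeq2, 0 with the replicate block and 0 to 1493 when a library was left out. Between WT and labelled Neil1-KO, DESeq2 called 2 genes and leaving out a library gave 0 to 2106 (2106 without labelled Neil1-KO ipsilateral 6 h replicate 1, and 174 without WT ipsilateral 6 h replicate 1). Between WT and Neil2-KO, DESeq2 called 1, the 16 libraries of these genotypes alone 1, and leaving out a library gave 0 to 50. The cause of these shifts was not tested. With 2 libraries per side and time, genes with few reads are given by read ratios.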
